A study of Mus musculus with 10 samples.

Results

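The 10 genes described here belong to TGF-beta and BMP signaling and to the Id family, and were followed through depolarization of mouse cortical cultures, at the levels of transcript abundance and ribosomal occupancy. They were chosen by gene symbol, and every Ensembl transcript of them in the counts was taken, which gave 16 transcripts of 9 genes among 22172 transcripts of 13189 genes. They are the ligand Tgfb2, the receptors Tgfbr1 and Tgfbr2, the inhibitors Smad7 and Skil, and Id1, Id2, Id3 and Id4. No transcript in the counts was matched to Smad3, the 10th gene, which was not analysed here.

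Cortical cells of newborn (P0) FVB pups of both sexes, a mixture of neurons and glia, grew for 7 days in vitro. KCl was then added to a final 55 mM for 3 h in cultures 4 and 5, cultures 1, 2 and 3 were left untreated, and all 5 were given cycloheximide (100 ug/ml, 7 min), a drug that halts ribosomes on mRNA, just before lysis. An RNAseq library of total RNA and an RF (ribosome footprinting) library of the RNA fragments that ribosomes protect were made from each culture. Nothing in the labels says that the cultures came from separate litters, so that p-values measure the spread between these cultures, and a further KCl culture had been removed by the authors for its low library size.

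TGF-beta ligands bind TGFBR2, a kinase that activates TGFBR1, which phosphorylates SMAD2 and SMAD3, while BMP ligands act through other receptors on SMAD1, SMAD5 and SMAD8. SMAD7 blocks activated receptors, and SnoN, the protein of Skil, represses SMAD complexes at their target genes. Both genes are known targets of the pathway that they restrain. The Id proteins are helix-loop-helix proteins without a DNA-binding domain that hold E proteins away from DNA, and in neural progenitors and astrocytes their genes are known as targets of BMP signaling.

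RNAseq levels are given as RPKM (reads scaled to transcript length and library size) over all regions of a transcript and RF levels as RPKM of footprints on the coding sequence (CDS), both scaled by TMM factors. Translation efficiency (TE) is the ratio of RF to RNAseq RPKM. RNAseq libraries held between 3056286 and 3629959 reads and RF libraries between 1463654 and 7719915, with the fewest in untreated culture 3 and KCl culture 4. In markers of the cell types, the summed RNAseq level of 7 astrocyte genes was 9770 to 10279 CPM (reads scaled to library size alone) in untreated and 7827 to 7950 CPM in KCl cultures, and that of 7 neuronal genes was 360.1 to 521 and 453 to 459.6 CPM. None of the 5 endothelial markers passed the filter on levels, and none of the lists had a listed marker at 0 in every RNAseq library.

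A transcript was tested where at least 2 cultures each had 10 or more RPKM in RNAseq as well as in RF. This held for 12 of the 16 transcripts, of 8 of the 9 genes, and each gene is described by its tested transcript with the most RNAseq reads. All coordinates are of GRCm38. Tgfb2 lies on chromosome 1 at 186622792 to 186705989, Tgfbr1 on chromosome 4 at 47353222 to 47414931, Tgfbr2 on chromosome 9 at 116088929 to 116175360, Smad7 on chromosome 18 at 75367529 to 75395935 and Skil on chromosome 3 at 31095058 to 31122573. The Id genes are short, with Id1 on chromosome 2 at 152736251 to 152737410, Id2 on chromosome 12 at 25093801 to 25096092, Id3 on chromosome 4 at 136143497 to 136145392 and Id4 on chromosome 13 at 48261228 to 48266026. Reads were counted on every isoform they fit, so that isoforms share reads. The RNAseq reads of both Id1 transcripts were equal in 2 of 5 libraries, and the CDS footprints of both Smad7 transcripts in 5 of 5.

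Because the question is how ribosomes load these transcripts, the start codons of 8 genes are shown in their context. The lines give the 6 bases before and the base after the start codon, 5′ to 3′, read from the GENCODE transcripts of GRCm38, with the start codon in capitals.
Tgfb2: aaaaacATGc
Tgfbr1: gggaccATGg
Tgfbr2: gctgccATGg
Skil: gtggccATGg
Id1: aggatcATGa
Id2: agcagcATGa
Id3: tccaacATGa
Id4: cgcgcgATGa
The letter after the start codon was g in both receptors and in Skil and a in all 4 Id genes. Upstream ATG codons, in any frame of the 5′UTR, numbered 7 in Skil, 6 in Smad7, 2 in Tgfbr2 and 1 each in Tgfb2 and Id3, whereas the 5′UTRs of Tgfbr1, Id1, Id2 and Id4 held 0.

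KCl split the family. The inhibitors Smad7 and Skil rose in RNAseq and RF, the receptor Tgfbr2 and the genes Id1 and Id3 fell in both, and Tgfb2 and Id4 gained CDS footprints without a called change in RNAseq. With edgeR at an adjusted p under 0.05, 5 of 8 tested genes changed in RNAseq (2 higher and 3 lower), where 33.2% of all 7262 tested transcripts were called, 17.5% higher and 15.7% lower. In RF, 7 of 8 changed (4 higher and 3 lower), where 41.0% of all were called, 21.2% higher and 19.8% lower. Smad7 and Skil reached the minimum of 10 RPKM in enough cultures only with the KCl cultures, and Tgfbr2 only in untreated ones, so that the counts over the tested genes are a description and do not cover all members. In RF, the 2 groups of cultures did not overlap in 8 of 8 genes, against 61.4% of all transcripts, and in TE in 3 of 8, against 34.2%. In TE, 0 of 8 were called by edgeR and 0 by DESeq2, against 5.8% of all transcripts by edgeR, and 3 of 8 (Tgfb2, Skil and Id4) had an unadjusted p under 0.05 by edgeR, against 16.9% of all.

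**Figure D1:**
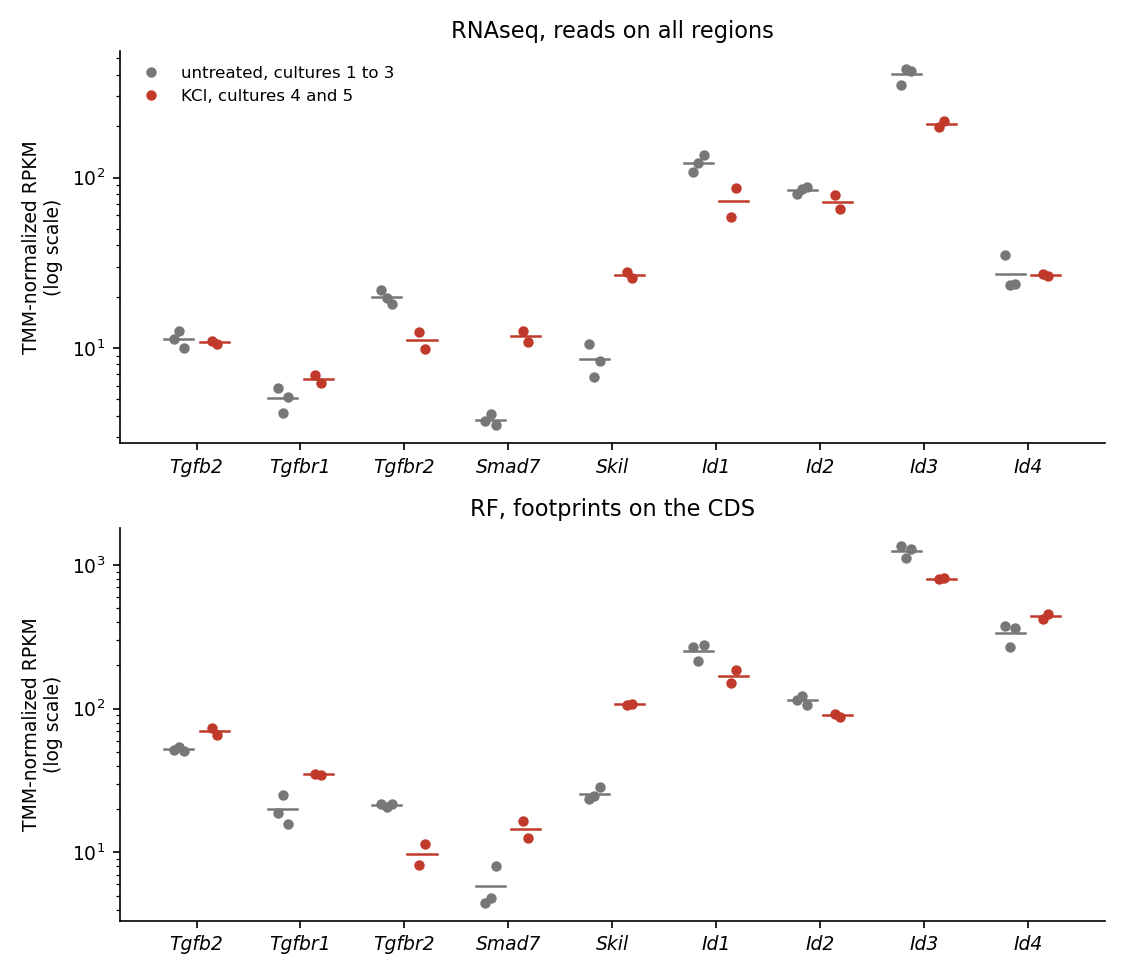
RNAseq RPKM over all regions (top) and RF RPKM on the CDS (bottom) of 9 genes, on log axes; gray points are untreated cultures 1 to 3, red points KCl cultures 4 and 5, and lines the group means. Smad7 and Skil lie higher after KCl in both panels, Tgfbr2, Id1 and Id3 lower, and Id4 and Tgfb2 are separated in the lower panel only.

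Untreated cultures ordered the genes clearly. Per length, Id3 was the most abundant transcript, with an RNAseq RPKM of 350.4, 436 and 424 in cultures 1, 2 and 3, followed by Id1 and Id2. Tgfbr1 and Smad7 were lowest, at 4.16 to 5.84 and 3.51 to 4.11. Of neighbors in this order only Tgfb2, at 10.05 to 12.6, and Skil, at 6.78 to 10.5, overlapped. For comparison, the median tested transcript had an RNAseq RPKM between 21.1 and 21.5 in untreated cultures. The order of RF differed, since Id4 stood second there with 269 to 373 RPKM and overlapped Id1, at 216 to 276. After KCl, Skil moved above Id2 in RF, at 106 and 108 against 92.3 and 88.0 RPKM, and Tgfbr2 became the lowest of the 9 genes.

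TE set Id4 apart. Its TE was 10.7, 11.5 and 15.4 in untreated cultures, above that of every other member in each group, while the median tested transcript had a TE of 1.79 to 1.81 there. Tgfb2 came next, with 4.28 to 5.02. The described transcript of Tgfbr2 had the lowest mean, with 0.991 to 1.19, and overlapped Smad7. Its longer transcript, ENSMUST00000061101, with nearly the same reads, had a TE of 2.23, 2.38 and 2.63. The TE ranges of Tgfb2, Tgfbr1, Id3, Skil, Id1, Smad7 and Id2 overlapped from neighbor to neighbor in the untreated cultures. TE is a ratio to RNAseq reads over the whole transcript, and the Id4 transcript has a 3′UTR of 3093 nt beside a CDS of 483 nt. With RNAseq reads on the CDS alone the order differed, since the ratio of Id4 was 14.5, 13.0 and 22.1 in untreated cultures and that of Id2 51.0, 20.3 and 22.3, the latter from 3, 8 and 6 RNAseq reads.

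Skil, which encodes the SMAD repressor SnoN, had the largest fold change in RF of the 8 genes. Its RNAseq RPKM was 10.5, 6.78 and 8.40 in untreated cultures 1, 2 and 3 and 27.9 and 25.7 in KCl cultures 4 and 5. Its RF RPKM was 23.3, 24.6 and 28.5, then 106 and 108. Both KCl cultures lay far above all untreated cultures in both assays. RNAseq rose by a log2 fold change of 1.64 (SE 0.16, edgeR adjusted p = 2.0e-11) and RF by 2.11 (SE 0.12, adjusted p = 1.6e-13). TE was 2.21, 3.63 and 3.39 in untreated and 3.80 and 4.21 in KCl cultures, and its log2 fold change of 0.44 (SE 0.21) did not pass the test (unadjusted p = 0.040, edgeR adjusted p = 0.26). Without culture 1, which had the lowest TE, it was 0.18.

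The RNAseq rise of Skil differed along the transcript. Reads on the CDS numbered 44, 27 and 18 in untreated and 128 and 146 in KCl cultures, a 4.52-fold higher mean CPM. The 3′UTR of the transcript ENSMUST00000117728 ends after 667 nt and is the first part of the 3960 nt of the 3′UTR described here (ENSMUST00000118470). The reads counted on that first part were 8, 7 and 6 in untreated and 84 and 55 in KCl cultures, a 9.83-fold higher mean CPM, whereas the rest of the 3′UTR, taken by difference, held 125, 81 and 117, then 249 and 258 reads, a 2.29-fold higher mean. The first part thus took 6.02, 7.95 and 4.88% of the 3′UTR reads in untreated and 25.2 and 17.6% in KCl cultures. The groups do not overlap, and the exact two-sided permutation test gave p = 0.1, the smallest that 3 against 2 cultures allow. The split was chosen after the counts were seen.

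The TE of Skil depended on the transcript. The 2 tested transcripts with a short 3′UTR, ENSMUST00000117728 and ENSMUST00000118204, had RNAseq log2 fold changes of 2.13 (SE 0.20, edgeR adjusted p = 8.0e-12) and 2.16 (SE 0.21, adjusted p = 4.5e-11). Both transcripts passed the filter in 2 KCl and 0 untreated cultures. They were thus tested only through the group where they are high, and these values are a description. Their TE log2 fold changes were -0.04 and -0.02, beside 0.44 and 0.47 for the 2 transcripts with the long 3′UTR. The CDS of all 4 overlap, and the CDS footprints of ENSMUST00000118204 and ENSMUST00000029194 were equal in 5 of 5 libraries, so that their TE values differ through RNAseq reads alone. With RNAseq reads on the CDS alone, the TE log2 fold change of ENSMUST00000118470 was -0.12.

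**Figure D2:**
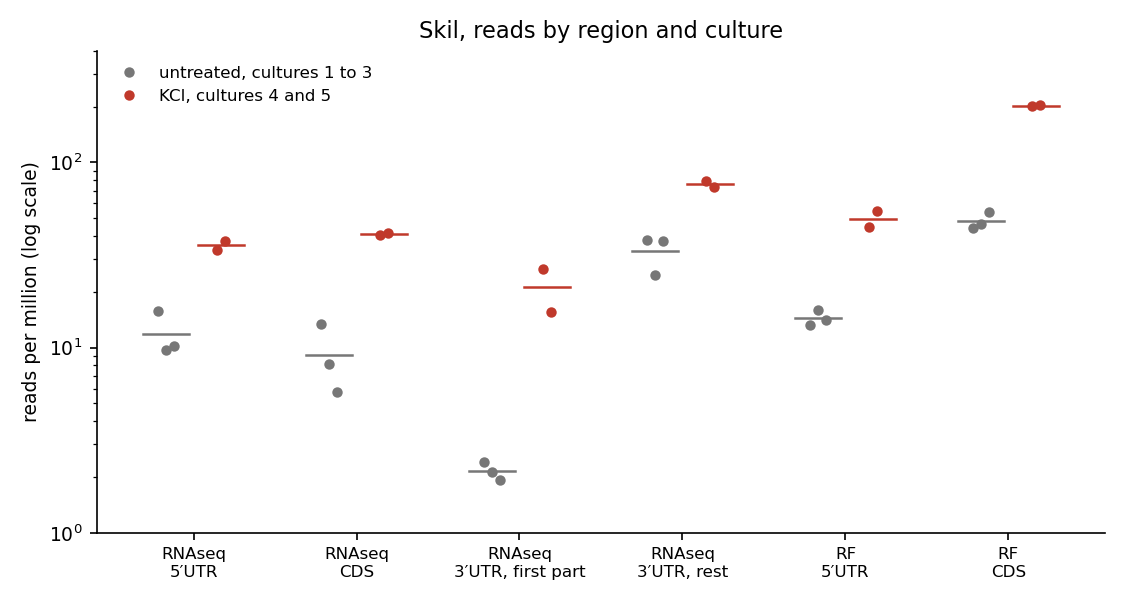
CPM on the regions of Skil (log axis) by culture; gray points are untreated, red points KCl cultures, and lines the means. RNAseq reads on the first 667 nt of the 3′UTR rise from 1.92 to 2.42 CPM to 15.6 and 26.7 CPM, more than those on the rest of the 3′UTR.

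Smad7, the inhibitory SMAD, rose from a lower level. Its RNAseq RPKM was 3.75, 4.11 and 3.51 in untreated and 12.6 and 10.9 in KCl cultures, and the log2 fold change was 1.62 (SE 0.21, edgeR adjusted p = 4.4e-08). RF RPKM was 4.45, 4.84 and 8.07, then 16.4 and 12.6, from 42, 39, 14, 30 and 44 footprints in cultures 1 to 5. The RF log2 fold change was 1.47 (SE 0.29, edgeR adjusted p = 0.00022). Every KCl value lay above every untreated value in both assays, although culture 3, with 14 footprints, was closer to the KCl cultures than the others. TE overlapped between the groups, at 1.19, 1.18 and 2.301 against 1.31 and 1.15. The tested transcript passed the filter in 2 KCl and 0 untreated cultures. Without a filter its log2 fold changes were 1.69 in RNAseq and 1.52 in RF. On the CDS alone its RNAseq change did not pass (log2 fold change 1.22, edgeR adjusted p = 0.13).

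The 5′UTR of Smad7 carried more footprints than its CDS in 4 of 5 libraries. Over 1427 nt of 5′UTR, 66, 48 and 13 footprints were counted in untreated and 32 and 78 in KCl cultures. Per nucleotide, the 5′UTR held 1.41, 1.10 and 0.832 times the density of the CDS, then 0.955 and 1.59 times. The median tested transcript with a 5′UTR of at least 50 nt had a ratio between 0.276 and 0.438 in these libraries, and between 11.3 and 23.5% of transcripts had one above 1. The ratio of Smad7 overlapped between the groups. That of Skil was 0.782, 0.893 and 0.675 in untreated and 0.580 and 0.691 in KCl cultures, and also overlapped.

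Tgfbr2, the receptor that binds TGF-beta, fell. RNAseq RPKM of its transcript ENSMUST00000035014 was 21.9, 19.6 and 18.2 in untreated and 12.4 and 9.89 in KCl cultures, with a log2 fold change of -0.84 (SE 0.18, edgeR adjusted p = 0.00031). RF RPKM was 21.7, 20.8 and 21.7, then 8.23 and 11.4, a log2 fold change of -1.07 (SE 0.20, adjusted p = 0.00010). All KCl values were below all untreated values in both assays. TE was 0.991, 1.06 and 1.19 against 0.662 and 1.15, with a log2 fold change of -0.21 (SE 0.30, edgeR adjusted p = 0.79). The KCl values of RF rest on 20 and 53 footprints. The transcript passed the filter in 3 untreated and 0 KCl cultures, and without a filter the log2 fold changes were -0.77 in RNAseq and -1.01 in RF. The longer transcript ENSMUST00000061101 has nearly the same reads (at most 1.63% apart in RNAseq) over more bases and stayed under 10 RPKM.

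Some markers of fibroblasts and mural cells, Col1a1 among them, were lower beside Tgfbr2. The summed RF level of the 5 listed genes of that list was 912 to 1219 CPM in untreated and 556 to 676 CPM in KCl cultures, and their RNAseq level 444 to 526 and 360.4 to 408 CPM. Col1a1 alone had an RF level of 937, 604 and 900.5 CPM in untreated and 248 and 359 CPM in KCl cultures. The other 4 markers, mostly through Dcn, summed to 282, 308 and 256 CPM, then 308 and 317 CPM. In RNAseq these 4 summed to 158.6, 163.2 and 135.4 CPM, then 130.0 and 111.9 CPM. RNAseq reads of Pdgfrb were 63, 63 and 62, then 27 and 32, and of Lum 45, 32 and 38, then 17 and 17. Those of Dcn were 393, 434 and 319, then 361 and 339. Pdgfrb and Lum were below the filter. Of the 2 tested markers, 1 (Col1a1) fell and 0 rose in RNAseq, and in RF Col1a1 fell and Dcn rose, both of which are also in the lists of pathway genes. Their part in the fall of Tgfbr2 was not tested. In cultures of mixed cells, fewer cells of a type and less RNA per cell cannot be told apart.

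Tgfbr1, the receptor that signals to SMAD2 and SMAD3, did not reach 10 RPKM in RNAseq in any culture. Its RNAseq RPKM was 5.84, 4.16 and 5.16 in untreated and 6.96 and 6.22 in KCl cultures, and its RF RPKM 18.8, 25.2 and 15.6, then 35.2 and 34.6. Its values after KCl lay above all untreated ones in both assays, the reverse of Tgfbr2. With edgeR's filterByExpr in place of the filter on RPKM, RF rose by a log2 fold change of 0.81 (SE 0.17, adjusted p = 0.00022), whereas RNAseq, at 0.45 (SE 0.21, adjusted p = 0.11), and TE, at 0.41 (SE 0.29, adjusted p = 0.59), did not pass.

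Tgfb2, the ligand, had a small rise in RF that depended on the settings. RNAseq RPKM was 11.4, 12.6 and 10.05 in untreated and 10.997 and 10.6 in KCl cultures, with a log2 fold change of -0.07 (SE 0.17, edgeR adjusted p = 0.79). RF RPKM was 51.6, 54.1 and 50.4, then 73.2 and 65.5, with both KCl cultures higher, a log2 fold change of 0.40 (SE 0.13, adjusted p = 0.018). The TE of 4.54, 4.28 and 5.02 in untreated and 6.66 and 6.18 in KCl cultures did not overlap, but its log2 fold change of 0.49 (SE 0.24, unadjusted p = 0.043) did not pass (edgeR adjusted p = 0.27). The call in RF was lost with DESeq2 (adjusted p = 0.058), with library totals in place of TMM (log2 fold change 0.29, adjusted p = 0.077), and without culture 1, 4 or 5 (adjusted p = 0.050, 0.17 and 0.065).

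Id3 had the firmest fall of the Id genes. RNAseq RPKM was 350.4, 436 and 424 in untreated and 197 and 216 in KCl cultures, with a log2 fold change of -0.97 (SE 0.13, edgeR adjusted p = 1.5e-07). RF RPKM was 1356, 1123 and 1282, then 796 and 805, a log2 fold change of -0.64 (SE 0.09, adjusted p = 4.3e-06). All KCl values were below all untreated values in both assays. TE was 3.87, 2.57 and 3.02 against 4.03 and 3.73, so that the groups overlapped through culture 1, and the log2 fold change was 0.32 (SE 0.17, edgeR adjusted p = 0.33). Without culture 1 it was 0.47 and passed (adjusted p = 0.030).

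Id1 fell as well. RNAseq RPKM was 107, 122 and 135 in untreated and 58.6 and 86.7 in KCl cultures, with a log2 fold change of -0.74 (SE 0.16, edgeR adjusted p = 0.00031). RF RPKM was 267, 216 and 276, then 149.9 and 186, a log2 fold change of -0.55 (SE 0.13, adjusted p = 0.0019). KCl culture 4 was the lowest in both assays, and without it both changes were smaller and lost their calls (RNAseq -0.49, RF -0.43). The other tested transcript, ENSMUST00000038368, had log2 fold changes of -0.72 in RNAseq and -0.57 in RF. Without culture 4 these were -0.47 and -0.48, and only the RF call remained. A fit without culture 4 or 5 has 1 KCl culture, which is assumed to vary like the untreated ones. The TE of Id1 overlapped between the groups, at 2.49, 1.76 and 2.05 against 2.56 and 2.15.

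Footprints on the 5′UTR of Id1 were few after KCl. The 90 nt of 5′UTR held 49, 60 and 10 footprints in untreated and 2 and 6 in KCl cultures, and its density relative to the CDS was 0.276, 0.490 and 0.296, then 0.104 and 0.131. RNAseq reads on the same 90 nt were few, at 10, 18 and 18 in untreated and 10 and 22 in KCl cultures. Their mean was 4.74 CPM in untreated and 4.71 CPM in KCl cultures, the latter from 3.18 and 6.25 CPM. In a test of 5′UTR against CDS footprints, which was added after these counts were seen, the log2 fold change of the ratio was -1.76 (SE 0.59, unadjusted p = 0.0070). It did not pass over the 4620 transcripts tested (edgeR adjusted p = 0.18), and leaving out culture 5, which left culture 4 with 2 footprints, gave an adjusted p of 0.81. Of the 8 genes, 0 passed this test and 1, Id1, had an unadjusted p under 0.05, against 0.801% (0.281% lower) and 13.8% of the transcripts tested.

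**Figure D3:**
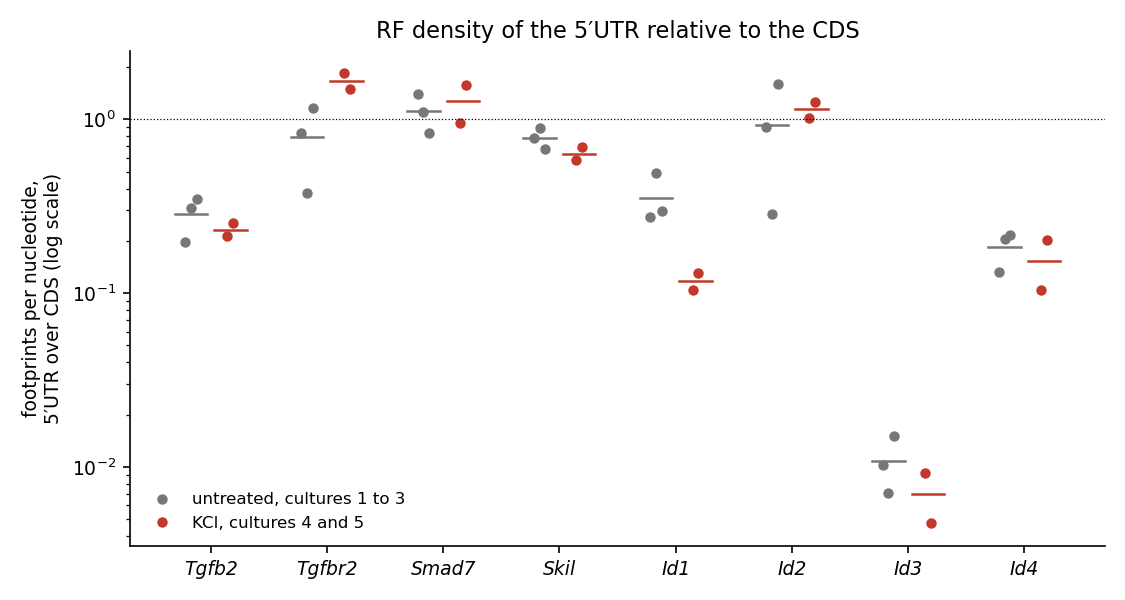
Footprints per nucleotide of the 5′UTR over those of the CDS (log axis, dotted line at 1) for 8 genes; gray points are untreated, red points KCl cultures, and lines the means. Id1 has a mean of 0.354 in untreated and 0.117 in KCl cultures and Tgfbr2 of 0.790 and 1.67, neither difference past the test after adjustment, and Id3 is near 0.01.

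The 5′UTR of Id3 also held few footprints after KCl. Over 382 nt it held 39, 19 and 10 footprints in untreated and 4 and 4 in KCl cultures, beside between 406 and 3573 on a CDS of 357 nt. Its density ratio lay between 0.00474 and 0.0150 in all 5 libraries. RNAseq reads on these 382 nt were also few, at 4, 11, 12, 9 and 6 in cultures 1 to 5. On the CDS they numbered 201, 191, 189, 90 and 101. The Ensembl transcript starts upstream of the RefSeq start, and whether the low ratio follows from little RNA there was not tested. The log2 fold change of the ratio was -0.82 (SE 0.52, edgeR adjusted p = 0.51), in the direction of Id1, and did not pass. The ratios of Tgfbr2 were 0.833, 0.378 and 1.16, then 1.84 and 1.49 with 7 and 15 footprints on the 5′UTR after KCl, and the log2 fold change of 1.02 (SE 0.52, edgeR adjusted p = 0.40) did not pass.

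Id2 was lower after KCl without passing the test. RNAseq RPKM was 79.8, 86.2 and 88.2 in untreated and 78.6 and 65.1 in KCl cultures, with a log2 fold change of -0.24 (SE 0.15, edgeR adjusted p = 0.23). RF RPKM was 115, 123 and 106, then 92.3 and 88.0, and the log2 fold change of -0.38 (SE 0.16, unadjusted p = 0.029) did not pass (edgeR adjusted p = 0.066). It passed with library totals (-0.48, adjusted p = 0.019) and with TMM over all 10 libraries (-0.41, adjusted p = 0.049). In RF both KCl cultures were lower than all untreated cultures, but the groups did not overlap in 61.4% of all transcripts, in either direction.

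Id4 did not fall with Id1 and Id3. RNAseq RPKM was 35.0, 23.3 and 23.6 in untreated and 27.1 and 26.3 in KCl cultures, with a log2 fold change of -0.04 (SE 0.16, edgeR adjusted p = 0.89). RF RPKM was 373, 269 and 365, then 420.1 and 457, a log2 fold change of 0.41 (SE 0.12, adjusted p = 0.013). TE was 10.7, 11.5 and 15.4, then 15.5 and 17.4, with culture 3 close to the KCl cultures, and its log2 fold change of 0.43 (SE 0.20, unadjusted p = 0.029) did not pass (edgeR adjusted p = 0.22). The call in RF was lost with library totals (0.30, adjusted p = 0.052) and without culture 5 (0.34, adjusted p = 0.17).

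Of 7 astrocyte markers, 4 fell in RNAseq, like Id1 and Id3, and 0 rose, against 15.7% and 17.5% of all tested transcripts. In RF 1 fell and 3 rose, against 19.8% and 21.2%. Their summed RF level was 14317 to 14841 CPM in untreated and 15265 to 15521 CPM in KCl cultures. Gfap held most of it, with 59757, 52545 and 11363, then 11821 and 23106 footprints in cultures 1 to 5. The markers were not alike. Sox9 had 2140, 2064 and 384, then 234 and 495 footprints, and 1081, 1117 and 1029, then 439 and 546 RNAseq reads. The part of the markers in the RNAseq fall of Id1 and Id3 was not tested.

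**Figure D4:**
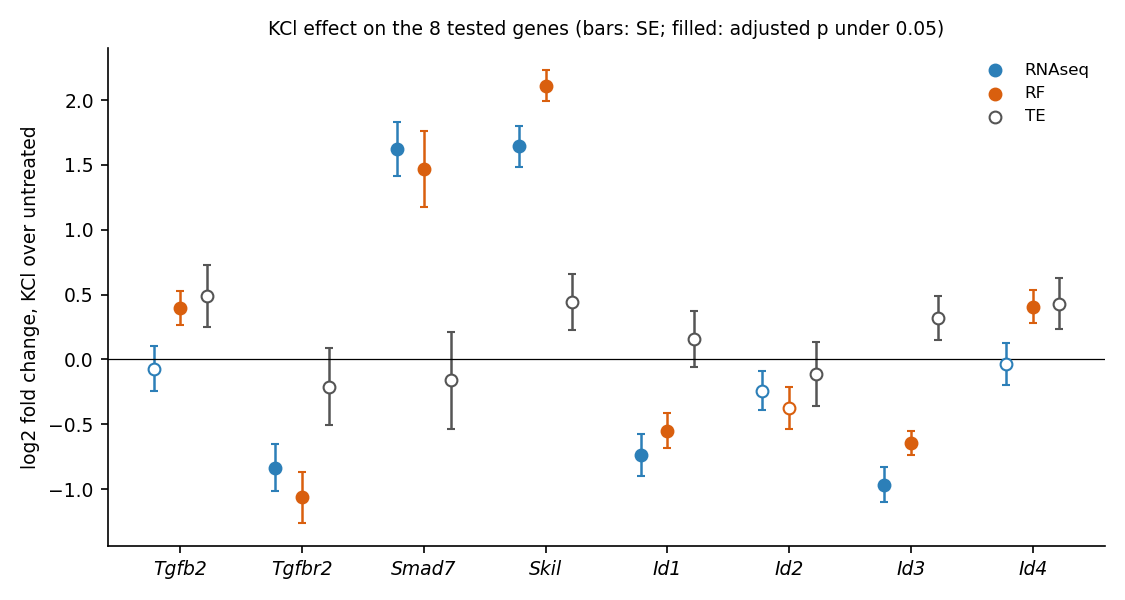
The log2 fold change of KCl over untreated cultures in RNAseq, RF and TE for 8 tested genes; bars are approximate SE, and filled points passed an adjusted p of 0.05. Smad7 and Skil lie above 1.4 in RNAseq and RF, Tgfbr2, Id1 and Id3 below -0.5, and all TE points are open.

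The distance between genes was the root mean square difference of centered log2 CPM over the 10 libraries. The genes nearest to a member were looked up among 4369 genes, the member itself left out. For Id3 these were Sez6, Islr2 and Tbrg1, at 0.0656 to 0.0774, where the median gene lay at 0.449. Islr2 was also the second nearest to Id1, after Plec and before Samm50. Id3 was the 12th nearest gene to Id1 and Id1 the 35th to Id3, at a distance of 0.148. For Skil the nearest were Chd2, Klf6 and Dnajb4 (0.0965 to 0.132), for Smad7 Pan3, Mafg and Numb (0.178 to 0.204), and for Tgfbr2 Pgam5, Lrig1 and Cdkn2aipnl (0.0947 to 0.113). Nearest to Tgfb2 were Abhd2, Rrbp1 and Lhpp, nearest to Id2 Stt3a, AI597479 and Fbxo22, and Stmn4 and Wnt5a were among the 3 nearest to Id4. Skil and Smad7 were each other's nearest member, at 0.352, where the median gene lay at 0.960 from Skil and 0.799 from Smad7, and Smad7 was the 79th nearest gene to Skil. The libraries share cultures and a depth per assay, and these distances are a description.

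Promoters in the RefSeq table of GRCm38.p6, 250 bases before to 50 after the start, were found for 7 of the 10 genes (8 promoters) and not for Id1, Skil and Smad7. The 7 genes include Smad3, to which no transcript in the counts was matched. The motif TGACG, the core of a cAMP response element, was searched on both strands and was in 3 of the 8, those of Id3, Id4 and Tgfb2, and in 20.8% of 32851 promoters. The Smad binding motif CAGACA was in those of Tgfb2 and Tgfbr1 and in 21.0% of all, and the GC-rich motif GGCGCC, bound by SMAD1 and SMAD5, in those of Id2, Id4 and Tgfbr1 and in 11.9% of all. The CAGACA match of Tgfbr1, at chr4:47386001-47386030, lies in an internal promoter within the span of the gene. Its GGCGCC match, at chr4:47352977-47353006, lies before the gene. The full element TGACGTCA, which holds TGACG, and the palindrome GTCTAGAC were in 0 of the 8 and in 1.79% and 0.213% of all. Matches in the Id genes, which differed in direction, and in Tgfb2 are shown 5′ to 3′ on the strand of the gene, with the match in capitals (CGTCA is TGACG read on the other strand).
Id2, chr12:25096306-25096335, minus strand: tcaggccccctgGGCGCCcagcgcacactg
Id3, chr4:136143640-136143668, plus strand: cgctgtcctcggCGTCAgaccagcctaag
Id4, chr13:48260875-48260903, plus strand: cattggcccgagCGTCAttccccgaggtg
Id4, chr13:48260956-48260985, plus strand: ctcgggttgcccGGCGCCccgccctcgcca
Tgfb2, chr1:186706176-186706205, minus strand: ccttggtgatcaCAGACAgtgactactgca
Tgfb2, chr1:186706045-186706073, minus strand: gtaatcctagcgCGTCActttgttgaagg
The motif TGACG was found in the promoters of Id3, which fell, and of Id4, which did not, and its part in either was not tested. The match of Id3 lies within the span of its Ensembl transcript, which starts upstream of the RefSeq start.

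The other genes of the pathway were taken as 9 lists of 113 genes, of which 94 were listed in the counts and 47 tested. In RNAseq, 12 of the 47 rose and 11 fell, against 17.5% higher and 15.7% lower of all transcripts. In RF, 11 rose and 11 fell, against 21.2% and 19.8%, and in TE 1 rose and 7 fell, against 1.67% higher and 4.13% lower. Without a filter, the TE changes of Gdf11, Bmpr1a, Smurf1 and Itgb8 did not pass (edgeR adjusted p = 0.061, 0.066, 0.092 and 0.080). Those of Tgfb3, Bmp6, Smurf2 and Col1a1 still passed. Of the 47, 1 gene (Hes1) passed the filter only through KCl cultures and 6, Tgfb3, Tgfb1i1, Smurf1 and Hes5 among them, only through untreated ones, so that these counts are a description.

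**Figure D5:**
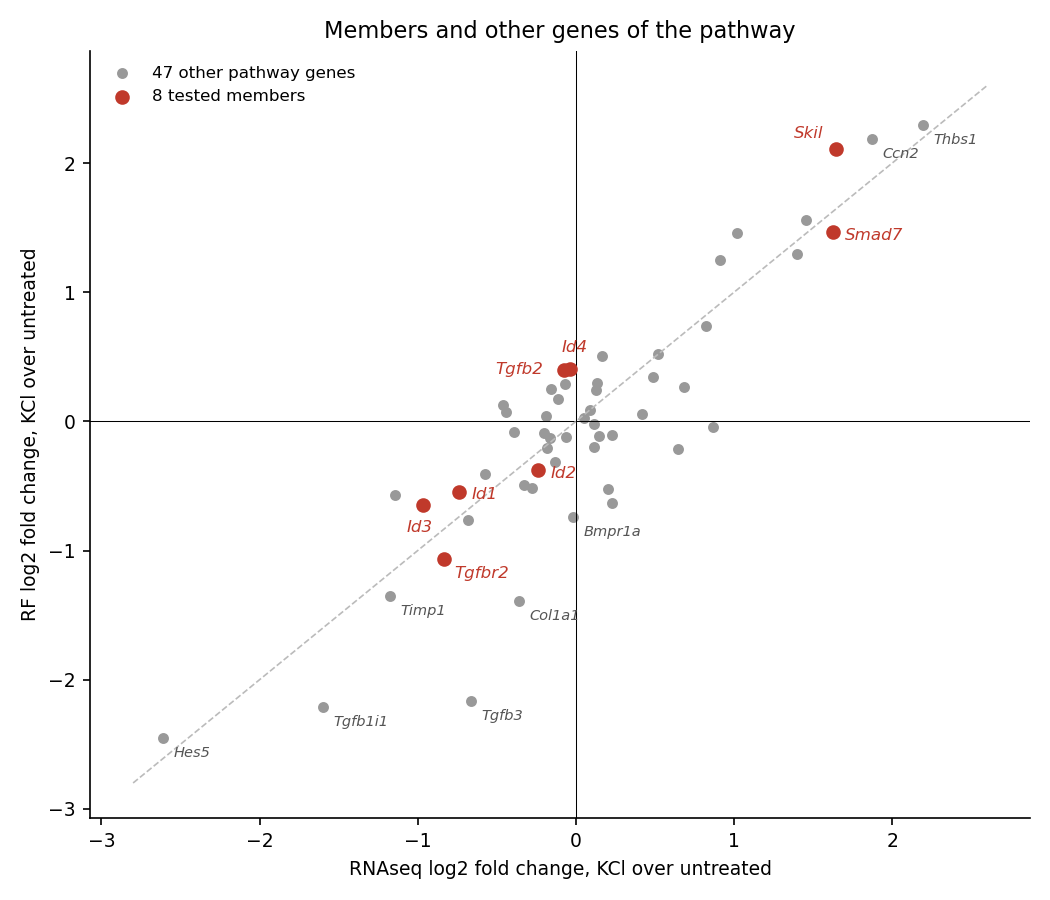
RNAseq (x axis) against RF (y axis) log2 fold change of KCl over untreated cultures for 8 tested members (red) and 47 other pathway genes (gray); the dashed line marks equal change. Skil and Smad7 lie with Ccn2 and Thbs1 at the upper right, and Tgfb3 and Col1a1 lie far below the line.

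Among the ligands, 3 of 17 genes were tested and all 3 fell in TE, although the call of Gdf11 was lost without a filter. Tgfb3, a ligand of the same receptors as Tgfb2, had an RF RPKM of 20.2, 25.4 and 24.4 in untreated and 7.36 and 3.84 in KCl cultures, on 13 footprints in each of the latter. Its RF log2 fold change was -2.17 (SE 0.29, edgeR adjusted p = 1.0e-06) and its RNAseq log2 fold change -0.67 (adjusted p = 0.0023), which left a TE log2 fold change of -1.54 (SE 0.35, adjusted p = 0.00075). Tgfb3 passed the filter only in untreated cultures, and without a filter its log2 fold changes were -2.11 in RF and -0.60 in RNAseq. Bmp6, a BMP ligand, fell in RF by -0.53 and in TE by -0.72 (edgeR adjusted p = 0.022), whereas Gdf11, a relative of myostatin, rose in RNAseq by 0.65 and fell in TE by -0.85 (edgeR adjusted p = 0.030), all on the log2 scale.

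Of the 5 tested receptor genes, 0 rose, 1 fell in RNAseq and 2 fell in RF. Bmpr1a, a type I BMP receptor, fell in RF (log2 fold change -0.74, edgeR adjusted p = 0.00082) and in TE (-0.68, adjusted p = 0.038) with an RNAseq log2 fold change of -0.02. Rgma, a BMP coreceptor, fell in RNAseq (-0.68, edgeR adjusted p = 0.00060) and RF (-0.77, adjusted p = 0.0011). Among the Smads, Smad1, which carries BMP signals, rose in RNAseq and RF by a log2 fold change of 0.52 in each (edgeR adjusted p = 0.0083 and 0.014), Smad4, the common partner, rose by 0.49 and 0.34, and Smad2 and Smad5 passed no test. Smad1 rose while Id1 and Id3 fell, and a link between these changes was not tested.

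Of 7 tested intracellular inhibitors other than Smad7 and Skil, 2 rose in RNAseq, 0 rose and 1 fell in RF, and 2 fell in TE. Smurf2, a ubiquitin ligase that SMAD7 brings to the receptors, rose in RNAseq (log2 fold change 0.87, edgeR adjusted p = 8.5e-06) with an RF log2 fold change of -0.05, so that TE fell (-0.88, adjusted p = 0.018). Its relative Smurf1 fell in RF (-0.63, edgeR adjusted p = 0.023) and TE (-0.86, adjusted p = 0.042). Smurf1 passed the filter only in untreated cultures, and without a filter its TE change did not pass (-0.87, edgeR adjusted p = 0.092). Its RF change did (-0.57, adjusted p = 0.036). Pmepa1, which binds SMAD2 and SMAD3, rose in RNAseq (0.69, edgeR adjusted p = 0.00027), with a TE log2 fold change of -0.39 that did not pass (adjusted p = 0.56). Of 4 extracellular antagonists, Dcn, a proteoglycan that binds TGF-beta, rose in RF by 0.25 and Nbl1, a BMP antagonist, fell by -0.49 on the log2 scale.

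Thbs1, which activates latent TGF-beta, rose beside Skil. Its RF RPKM was 78.2, 76.3 and 76.8 in untreated and 372 and 385 in KCl cultures, with log2 fold changes of 2.196 in RNAseq and 2.296 in RF (edgeR adjusted p = 5.5e-16 and 4.7e-17). Itgb8, an integrin subunit that also takes part in activation, fell in RNAseq by -0.46 and rose in TE by 0.60 (edgeR adjusted p = 0.032), the 1 gene of the lists with a rise in TE. The SMAD cofactor Ep300, a histone acetyltransferase, rose in RNAseq by 0.83 and in RF by 0.74 on the log2 scale.

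Target genes were divided. Of 10 tested, 4 rose and 5 fell in RNAseq, and 4 rose and 4 fell in RF. Ccn2 (also named Ctgf) rose by log2 fold changes of 1.87 and 2.19 in RNAseq and RF, Ccn1 (Cyr61) by 1.40 and 1.30, and Junb by 1.02 and 1.46 (all edgeR adjusted p under 0.05). Tgfb1i1, which encodes the focal adhesion adaptor Hic-5, fell by -1.60 and -2.21, Timp1, an inhibitor of metalloproteinases, by -1.18 and -1.35, and Col1a1, a chain of type I collagen, by -0.36 and -1.39, with a TE log2 fold change of -1.04 (edgeR adjusted p = 2.9e-07). Tgfb1i1 passed the filter only in untreated cultures, and without a filter its log2 fold changes were -1.53 and -2.15.

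Of the partners of the Id proteins and the basic helix-loop-helix factors of neural cells, 8 of 14 genes were tested. The E proteins Tcf3 and Tcf12 passed no test, and Tcf4 rose in RF (RPKM of 138, 136 and 134, then 185 and 199.6, log2 fold change 0.50, edgeR adjusted p = 3.2e-05). Hes1, a target of Notch, rose by 1.46 in RNAseq and 1.56 in RF, whereas its relative Hes5 fell in RNAseq from 9.75, 14.3 and 13.0 to 1.25 and 2.68 RPKM (log2 fold change -2.61, edgeR adjusted p = 1.5e-06). Hes1 passed the filter only through the KCl cultures and Hes5 only through untreated ones, and without a filter their RNAseq log2 fold changes were 1.52 and -2.55.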

How the data were processed

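Counts came from 5 RNAseq and 5 RF libraries of the same 5 cultures. The authors removed adapters (Trimmomatic 0.32) and rRNA (STAR 2.3.1z8), mapped reads to a nondegenerate mm10 transcriptome with Bowtie2 2.2.2, retaining multi-mapped ones, and deposited raw counts per transcript region made with bedtools 2.20.1. Regions carry letters. The 5′UTR, CDS and 3′UTR were assigned from read shares, lengths and order, and 1 region is unnamed. Codons near the start and stop could not be left out, as the study did for TE.

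Of 22534 transcripts, 22172 (98.4%) matched the GENCODE annotation of GRCm38, which gave names, coordinates and lengths. A minimum of 10 RPKM in both assays of a culture, met by 2 or more cultures, left 7262 transcripts. KCl and untreated cultures were compared with edgeR 4.0.16 (quasi-likelihood, robust, TMM within each assay) in R 4.3.3, with Benjamini-Hochberg adjustment over all 7262, and tested on simulated counts. TE was tested as the assay-by-treatment interaction in a fit blocked on culture. RNAseq was a portion of the same lysate, so the numbers pair the libraries, although same-numbered deviations correlated only between -0.0679 and 0.0653 (r over transcripts). The SE given is the log2 fold change over the square root of F, an approximation. The 5′UTR test used transcripts with at least 20 footprints on a 5′UTR of at least 50 nt. Alternatives included DESeq2 1.42.0, other normalizations, filters and regions, sums per gene and leaving out each culture.

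The members and lists were chosen with earlier results of these data known. Named are every member, up to 3 genes per list and direction that passed in RNAseq, RF or TE with both KCl cultures beyond all untreated ones (lowest adjusted p first), and the 3 nearest genes to each member. Genes that passed no test are named as such, and some genes that the rule names are not reported here.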

Additional observations from a re-analysis of the deposited data

How the results depend on the processing

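The number of the 8 tested genes called in RNAseq stayed at 5 under every alternative but 2: it was 3 with RNAseq reads on the CDS (Skil, Id1 and Id3), and between 4 and 5 over the fits that left out 1 culture each. In RF the number was 7 and lay between 5 and 8 over all alternatives, and between 5 and 7 without single cultures. In TE it was 0, and between 0 and 1 without single cultures, the 1 being Id3 without culture 1. The fit of TE without culture as a block also called 0, so the pairing changed no call. Fits without culture 4 or 5 hold 1 KCl culture, so that their spread comes from the untreated cultures. The added 5′UTR test called 0 in each of its settings.

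Directions turned only for values that passed no test. Tgfb2 RNAseq was 0.019 without culture 2 (range without single cultures -0.15 to 0.019), and Id4 RNAseq was 0.032 with filterByExpr, 0.036 without a filter and 0.18 without culture 1 (range -0.13 to 0.18). In TE, Tgfbr2 was 0.11 without culture 4 (range -0.69 to 0.11), and Smad7 0.035 without culture 3 (range -0.30 to 0.035). With RNAseq reads on the CDS, TE was 0.081 for Smad7, -0.12 for Skil and 0.79 for Id2, whose CDS held few RNAseq reads. The 5′UTR ratio of Smad7 was 0.032 with library totals and 0.13, 0.013 and 0.20 without cultures 1, 2 and 4 (range -0.39 to 0.20; all log2 fold changes, edgeR). Apart from these, calls were lost or gained in the settings named with Tgfb2, Id1, Id2, Id3 and Id4 in the results, and for Tgfbr2 in RNAseq on the CDS (-0.92, adjusted p = 0.075) and Smad7 there (1.22, adjusted p = 0.13). The cause was not tested.

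Library totals moved the median RF log2 fold change of all transcripts from -0.003 to -0.11, and the share of higher among called transcripts from 52.7 to 42.5% in RNAseq and from 51.7 to 38.2% in RF. Depth limits RF of Smad7, of Tgfbr2 after KCl and of the 5′UTRs.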
